A study of Mus musculus with 24 samples.

Results

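The 10 genes described here make or use caveolae, close endothelial pores with a diaphragm, or carry fatty acids into cells: Cav1, Cav2, Cavin1, Cavin2, Cavin3, Plvap, Gpihbp1, Cd36, Fabp4 and Fabp5. They were taken as a named list, and all 10 were found among the 22282 genes that the RNA sequencing files give by a current mouse symbol. Levels are in FPKM, fragments per kilobase of transcript, here scaled by the upper quartile of each library. Every member passed the filter on low values, a mean of at least 1 FPKM over all libraries, together with 14964 genes in total.

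The 24 libraries, 3 for each of 8 groups, all came from C57BL/6J mice. MACs are amniotic fluid cells taken at E11.5-E13.5, and Akt-MACs are MACs carrying a lentivirus for constitutively active, membrane-anchored Akt. RACVECs are MACs converted with lentiviruses for the Ets transcription factors Etv2, Erg and Fli1. Akt-RACVECs carry Akt in addition, and Sox17-RACVECs carry Sox17 in addition. Akt-LECs and Akt-liver ECs are adult lung and liver endothelial cells (ECs) that were captured with CD31 beads, given the Akt virus in culture and sorted again on VEcad and CD31. LSECs are liver ECs sorted straight from mice that had been injected with antibody to VEcad and with isolectin. The Ets factors and Akt were driven by a PGK promoter, and Sox17 was in another vector under puromycin selection. Amniotic cells were first grown in AmnioMAX medium. Cells under conversion were kept in EC medium with the TGFβ receptor inhibitor SB431542 and the growth factor VEGF-A. The methods do not name the medium of Akt-MACs. For MACs a replicate was a separately isolated culture of pooled embryos. The study calls its RNA sequencing libraries separate isolates, and the labels number those of adult ECs from 1 to 3.

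Caveolae are flask-shaped pits of the plasma membrane. Caveolin-1 forms their scaffold, caveolin-2 joins it, and the cavins coat the cytoplasmic face. Capillary ECs hold many of them, and many caveolae, fenestrae and transendothelial channels of ECs are spanned by a diaphragm made of Plvap. Fatty acids reach tissues when lipoprotein lipase, held on the capillary wall by Gpihbp1, splits lipoprotein triglyceride. Cd36 then takes up the released fatty acids and the binding proteins Fabp4 and Fabp5 carry them in the cytoplasm. LSECs are unusual capillary cells, with open fenestrae that in the adult mostly lack a diaphragm.

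Some libraries went against their labels or held RNA of other cells. In the library labelled Sox17-RACVEC 2, Etv2 was listed at 0 although the other 2 Sox17-RACVEC libraries had 458 and 378 FPKM. Its Erg level was 387 FPKM, against 4.49 and 0 in the other 2 libraries of that label and 0.9 to 13.8 in RACVECs. Erg was 395, 1002 and 418 FPKM in Akt-RACVECs, so by FPKM the RACVEC libraries held far less of this Ets factor than Akt-RACVECs did. By quantitative PCR the study reported no change of the Ets factor transcripts with Akt. This difference between the 2 measurements was not tested. Sox17 itself was 5.09, 40.1 and 200.1 FPKM in the 3 libraries labelled Sox17-RACVEC and listed at 0 in every RACVEC library. Akt1 was 884, 1323 and 916 FPKM in the libraries labelled Sox17-RACVEC, 1280.5, 872 and 920 in Akt-RACVECs and 607, 694 and 644 in RACVECs. In Akt-liver ECs it was 892, 559 and 656, and in MACs 692, 551 and 666. The share of Akt1 that came from the virus was not tested. The summed FPKM of 8 macrophage markers was 966, 14775 and 45293 in Akt-MACs and 24078, 21282 and 14576 in LSECs, while MACs had 0.79 to 14.7. Of those 8 markers, 1 was at 0 in all 3 Akt-MAC libraries and none in LSECs. MAC 2 had a summed FPKM of 4839.6 over 7 adipocyte markers, against 146 and 25.1 in MAC 1 and MAC 3. LSECs also had 2516 to 14489 over 7 hepatocyte markers, where no other library passed 68.0, and 10496 to 11126 over 5 erythroid and platelet markers, where no other library passed 699. The sum over 9 endothelial markers was 51.9 to 96.0 in MACs, 36.2 to 64.7 in Akt-MACs and at least 1961 in every library of the other groups, with none of the 9 at 0 throughout any group. In these bulk libraries fewer cells of a type and less RNA per cell cannot be told apart.

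The Ets factors bind words built on GGAA, so the promoters of the members were read on both strands for the word AGGAAG, for the word AGGAAA and for each of them with C as its first letter. They were also read for ACAAT, or else the longer ACAAAG, as Sox words. The RefSeq promoters (GRCm38.p6, 250 bases before to 50 bases after the start) matched 5 of the 10 members, Cav1, Cav2, Cavin1, Cavin2 and Cd36, with 7 windows in all. Cavin3, Plvap, Gpihbp1, Fabp4 and Fabp5 had no window. The 3 below are shown because they hold an Ets word, which stands in capitals, and because the transcripts behind them were higher in Akt-RACVECs than in Akt-MACs. They are Cav1 at chr6:17306085-17306384 on the plus strand, Cavin1 at chr11:100970566-100970865 on the minus strand and Cavin2 at chr1:51288876-51289175 on the plus strand, each written 5′ to 3′ along the gene.
Cav1: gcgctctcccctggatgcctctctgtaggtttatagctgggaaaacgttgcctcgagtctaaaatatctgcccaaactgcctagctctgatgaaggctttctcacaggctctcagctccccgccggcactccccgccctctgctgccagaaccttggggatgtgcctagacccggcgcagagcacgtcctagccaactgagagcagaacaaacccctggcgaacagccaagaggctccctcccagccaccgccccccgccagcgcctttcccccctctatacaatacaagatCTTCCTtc
Cavin1: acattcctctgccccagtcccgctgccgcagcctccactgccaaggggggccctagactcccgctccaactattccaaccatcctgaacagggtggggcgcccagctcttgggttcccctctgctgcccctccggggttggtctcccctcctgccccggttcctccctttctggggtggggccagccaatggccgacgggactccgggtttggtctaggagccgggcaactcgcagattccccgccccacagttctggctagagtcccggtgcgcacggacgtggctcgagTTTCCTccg
Cavin2: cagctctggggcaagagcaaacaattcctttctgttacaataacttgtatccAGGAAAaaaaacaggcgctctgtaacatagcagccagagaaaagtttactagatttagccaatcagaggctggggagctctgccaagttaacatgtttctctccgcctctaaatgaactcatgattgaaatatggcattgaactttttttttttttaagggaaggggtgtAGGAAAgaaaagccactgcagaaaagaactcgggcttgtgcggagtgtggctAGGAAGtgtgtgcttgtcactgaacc
Cavin2 held 3 Ets words and 2 Sox words, Cav1 held 1 of each and Cavin1 held 1 Ets word, which in Cav1 and Cavin1 lay in the 50 bases after the start. A second Cav1 window at chr6:17307390-17307689 and the Cav2 window held neither. The Cd36 window held no Ets word and 4 Sox words. An Ets word was present in 64.7% of all 32851 promoters and 3 or more in 12.5%, and a Sox word was present in 42.9%. A match describes letters and not a bound site.

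Across the 8 groups, 9 of the 10 members differed, where 54% of all genes tested did (limma F test on log2(FPKM + 1), adjusted p below 0.05). The exception was Fabp5, with an adjusted p of 0.356. Differences below are given on the log2(FPKM + 1) scale with their standard error (SE), from 1 limma fit over all 24 libraries, and a member is called where the Benjamini-Hochberg adjusted p is below 0.05 and the log2 fold change is past 1 or -1. On this scale the change of a low gene is understated.

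The comparison of Akt-RACVECs with Akt-MACs sets converted beside unconverted cells, both with Akt. Beyond the 3 Ets factors the groups differed in macrophage RNA and may have differed in medium, as given above. The parts of these cannot be told apart. This comparison called 9 of 10 members, 8 higher and 1 lower, where 19.5% of all genes tested were called. The median log2 fold change of the 10 members was 2.39, against -0.09 over all genes. Akt-LECs and Akt-MACs, adult ECs beside unconverted cells, differed in 8 of 10 members, all higher in Akt-LECs, against 16.3% of all genes, and this comparison used the same 3 Akt-MAC libraries. Cd36 and Fabp5 were not called there. In the first comparison Cd36 was the member called lower and Fabp5 the one not called. With Akt-MAC 2 and 3 left out, the libraries with the highest macrophage sums, each comparison called 3 members, namely Cavin2, Plvap and Gpihbp1, with the lone Akt-MAC library assumed to vary like the other groups. The first count fell to 4 without Akt-MAC 2, and the second fell to 5 without Akt-MAC 2 or without Akt-LEC 3.

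In cells without the Akt virus, RACVECs against MACs called none of the 10 members by limma, where 2.71% of all genes were called. Of the members, 2 had an unadjusted p under 0.05. Erg was 0.9 to 13.8 FPKM in RACVECs, against 395, 1002 and 418 in Akt-RACVECs. The conversions with and without Akt thus also differed in Erg. The interaction compares the difference of Akt-RACVECs from Akt-MACs with that of RACVECs from MACs. These differences were not shown to be unlike, because the interaction called 0 of 10 members (0.1% of all genes). It had 5 at an unadjusted p under 0.05. The groups in it also differed in Erg and in macrophage RNA. Akt-MACs against MACs, without the Ets viruses, also called 0 members (2.81% of all genes), with 2 at an unadjusted p under 0.05. Beyond the Akt virus these 2 groups differed in macrophage RNA and may have differed in medium. The parts of these cannot be told apart. Without MAC 3 this comparison called 2 members and without Akt-MAC 1 it called 1, and the interaction called 2 without Akt-MAC 1.

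Adding Akt to RACVECs changed 1 of 10 members, Gpihbp1, which was higher (0.261% of all genes). The groups also differed in Erg as given above, so the part of Akt and that of Erg cannot be told apart. RACVECs against Akt-LECs gave 1 member, again Gpihbp1, which was lower (0.261% of all genes), and shared the RACVEC libraries. Akt-RACVECs differed from Akt-LECs in 0 members, with 1 at an unadjusted p under 0.05 (0.00668% of all genes). Adding Sox17 to RACVECs called 0 members, with 1 at an unadjusted p under 0.05 (0.00668% of all genes). The libraries labelled Sox17-RACVEC also stood above every RACVEC library in Akt1. Sox17-RACVECs against Akt-RACVECs called 0 members, with 2 at an unadjusted p under 0.05 (0% of all genes). The organ comparison, Akt-LECs against Akt-liver ECs, called 0 members, with 1 at an unadjusted p under 0.05 (0.0134% of all genes). Cultured Akt-liver ECs against LSECs called 4 of 10 members, 3 higher and 1 lower, where 27% of all genes were called.

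**Figure D1:**
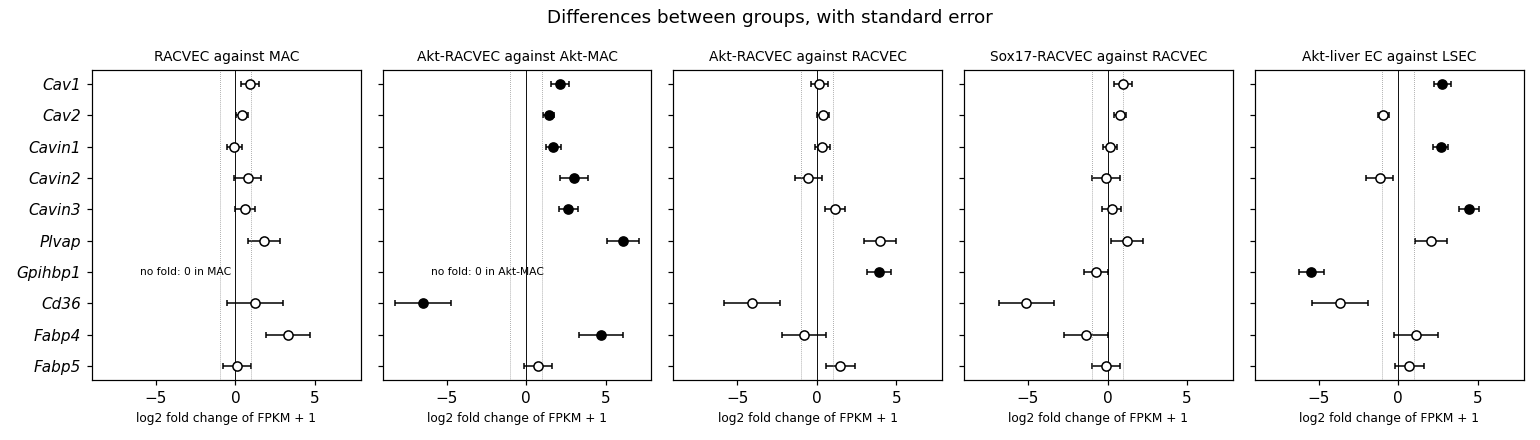
Differences of the 10 genes in 5 comparisons, as log2 fold change of FPKM + 1 on the horizontal axis, with bars for the standard error and dotted lines at 1 and -1. Filled points were called, 9 of 10 in Akt-RACVECs against Akt-MACs with Gpihbp1 given without a fold because it was 0 in Akt-MACs, 4 of 10 in Akt-liver ECs against LSECs, 1 of 10 in Akt-RACVECs against RACVECs and none in the other 2.

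Cav1, the scaffold caveolin, spans bases 17256335 to 17291452 of chromosome 6 in the mm9 build, to which all gene positions below refer. The 3 MAC libraries had a Cav1 FPKM of 1637, 697 and 358 and the 3 Akt-MAC libraries 476, 188 and 554. RACVECs had 1528, 924 and 2009, Akt-RACVECs 1111, 3049 and 1184 and the libraries labelled Sox17-RACVEC 2424, 2051 and 4423. Every library of converted cells was above every Akt-MAC library, and RACVECs overlapped MACs through MAC 1. The difference of Akt-RACVECs from Akt-MACs was 2.11 ± 0.55 (SE, adjusted p = 0.0116), and that of RACVECs from MACs was 0.93 ± 0.55 (SE, adjusted p = 0.366). The first call was lost without Akt-MAC 2 (adjusted p = 0.0729) and without Akt-RACVEC 2 (0.0659). Adult Akt-LECs had 1465, 2092 and 4386 FPKM, and their difference from Akt-MACs was 2.69 ± 0.55 (SE, adjusted p = 0.00382). Neighbouring groups overlapped at all 7 steps of the order of the 8 groups.

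Cav2, which joins Cav1 in the same oligomers, ends 17219 bases upstream of the Cav1 gene, between 17231185 and 17239115. Its FPKM was 491, 216 and 325 in MACs, 217, 190.0 and 218 in Akt-MACs and 404, 795 and 527 in Akt-RACVECs. All Akt-RACVEC libraries were above all Akt-MAC libraries, and the difference was 1.41 ± 0.37 (SE, adjusted p = 0.0119). Without Akt-RACVEC 2 the adjusted p was 0.0627. In RACVECs the level was 307, 433 and 579, which overlapped MACs. LSECs had the highest mean, with 1317, 826 and 1208 FPKM.

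The balance of the 2 caveolins set LSECs apart. Per kilobase, LSECs held 4.99, 4.29 and 4.84 units of Cav2 for each unit of Cav1 in the 3 libraries, while the other 21 libraries held 0.201 to 1.01, the highest of them Akt-MAC 2. Cav1 was 264, 193 and 249 FPKM in LSECs and 1202, 1781 and 1934 in Akt-liver ECs, a difference of 2.78 ± 0.55 (SE, adjusted p = 0.000844). Cav2 did not pass the test in the same comparison, at -0.93 ± 0.37 (SE, adjusted p = 0.0612), with 484, 561 and 703 FPKM in Akt-liver ECs, all below every LSEC library, and it passed without LSEC 2 (adjusted p = 0.0499). The ratio was chosen after its values were seen and carries no test.

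**Figure D2:**
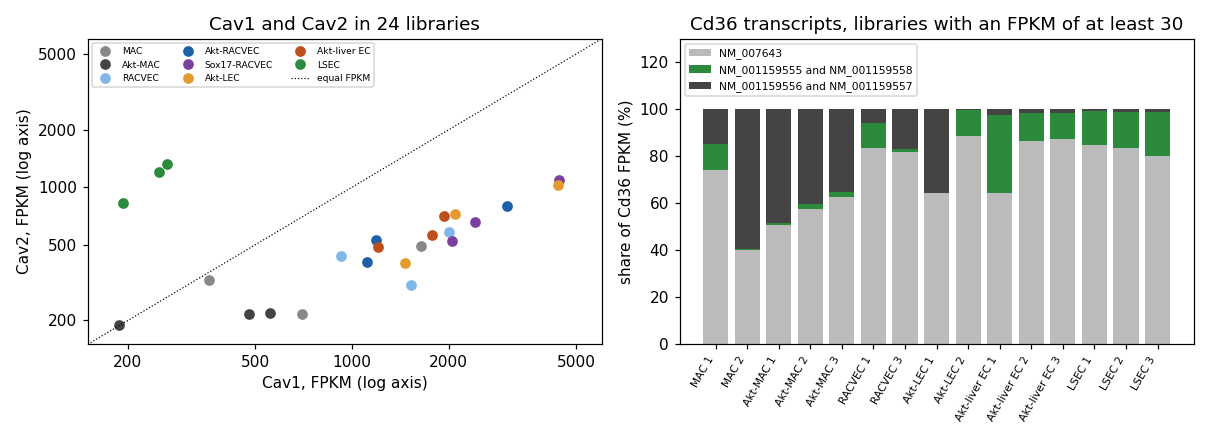
Left, Cav2 against Cav1 in the 24 libraries, each point 1 library, both axes in FPKM on a log scale, with a dotted line where the 2 are equal. The 3 LSEC libraries stand above the line at ratios of 4.29 to 4.99 and the other 21 below it, except Akt-MAC 2 at 1.01. Right, the share of Cd36 FPKM in percent by RefSeq transcript in the 15 libraries with at least 30 FPKM. Akt-MACs have 35.1% to 48.5% in NM_001159556 and NM_001159557 and LSECs 0.589% to 1.31%.

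Cavin1 (Ptrf in the mm9 annotation), without which caveolae do not form, lies on chromosome 11 from 100818047 to 100832201 on the minus strand. Its FPKM was 1583, 2346 and 669.6 in MACs, 1054, 353 and 334 in Akt-MACs and 1495, 1606 and 1855 in Akt-RACVECs. Akt-RACVECs did not overlap Akt-MACs and differed from them by 1.72 ± 0.46 (SE, adjusted p = 0.0122), yet they lay within the range of MACs. Akt-MACs were lower than MACs by a margin that did not pass the test (-1.44 ± 0.46 SE, adjusted p = 0.109), and it passed without MAC 3 (adjusted p = 0.0208) or Akt-MAC 1 (0.00962). The call against Akt-RACVECs was lost without Akt-MAC 2 (0.0645) or Akt-MAC 3 (0.0545). With the macrophage-rich Akt-MAC 2 and 3 both left out, the log2 fold change of Akt-MACs against MACs was -0.36. That of Akt-RACVECs against Akt-MACs was then 0.64. RACVECs against MACs gave -0.07 ± 0.46 (SE, adjusted p = 0.981), and the sign turned without MAC 1, MAC 2 or RACVEC 2 (0.04, 0.32 and 0.11).

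Cavin2 (Sdpr), a cavin of the caveolar coat that is abundant in some endothelia, lies on chromosome 1 from 51345970 to 51359803. Its FPKM was 247, 497 and 152 in MACs and 10.7, 40.9 and 115 in Akt-MACs. The 3 Akt-MAC libraries were all below the MACs, with -2.79 ± 0.86 (SE, adjusted p = 0.0941), which did not pass the test. Akt-RACVECs had 437, 47.3 and 1399.8, and Akt-RACVEC 2 fell inside the range of Akt-MACs. Their difference was called, at 3.01 ± 0.86 (SE, adjusted p = 0.0176), and the call was lost without Akt-MAC 1 or 2 (adjusted p = 0.0910 and 0.0502) and without Akt-RACVEC 1 or 3 (0.0574 and 0.0940). Akt-LECs, with 753, 1049.6 and 1053, were above every Akt-MAC library by 4.61 ± 0.86 (SE, adjusted p = 0.00206).

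Cavin3 (Prkcdbp), the cavin that binds protein kinase C delta, lies on chromosome 7 from 112629121 to 112630711 on the minus strand. Its FPKM was 374, 642 and 453 in RACVECs and 837, 1298 and 1092 in Akt-RACVECs. The 2 groups did not overlap, but the difference missed the threshold at 1.15 ± 0.63 (SE, adjusted p = 0.381). Akt-MACs had 448, 108 and 94.7, and Akt-RACVECs were higher by 2.66 ± 0.63 (SE, adjusted p = 0.00617). With the macrophage-rich Akt-MAC 2 and 3 left out, the log2 fold change was 1.24. MACs had 263, 342 and 349.8, all below every RACVEC library, with 0.60 ± 0.63 (SE, adjusted p = 0.656) for that step.

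In LSECs the cavins parted. Cavin1 was 158, 188 and 213 FPKM in LSECs against 1066, 1334 and 1142 in Akt-liver ECs, which were higher by 2.66 ± 0.46 (SE, adjusted p = 0.000211). Cavin3 was 7.16, 5.60 and 18.9 against 101, 427 and 256, with Akt-liver ECs higher by 4.45 ± 0.63 (SE, adjusted p = 2.69e-05). Both coat genes were lower in the sorted cells, without overlap between the groups. Cavin2 was 2255, 1614 and 1664 in LSECs and 797, 551 and 1242 in Akt-liver ECs, where the LSEC libraries were all higher but the difference did not pass the test (-1.16 ± 0.86 SE, adjusted p = 0.32). Per kilobase LSECs held 7.81 to 14.3 units of Cavin2 for each unit of Cavin1, against 0.0102 to 1.09 in the other 21 libraries. LSECs also carried the RNA of other cells given above, with 8 of 8 macrophage, 7 of 7 hepatocyte and 3 of 5 erythroid and platelet markers called higher in them, and the part of these cells in the differences was not tested.

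**Figure D3:**
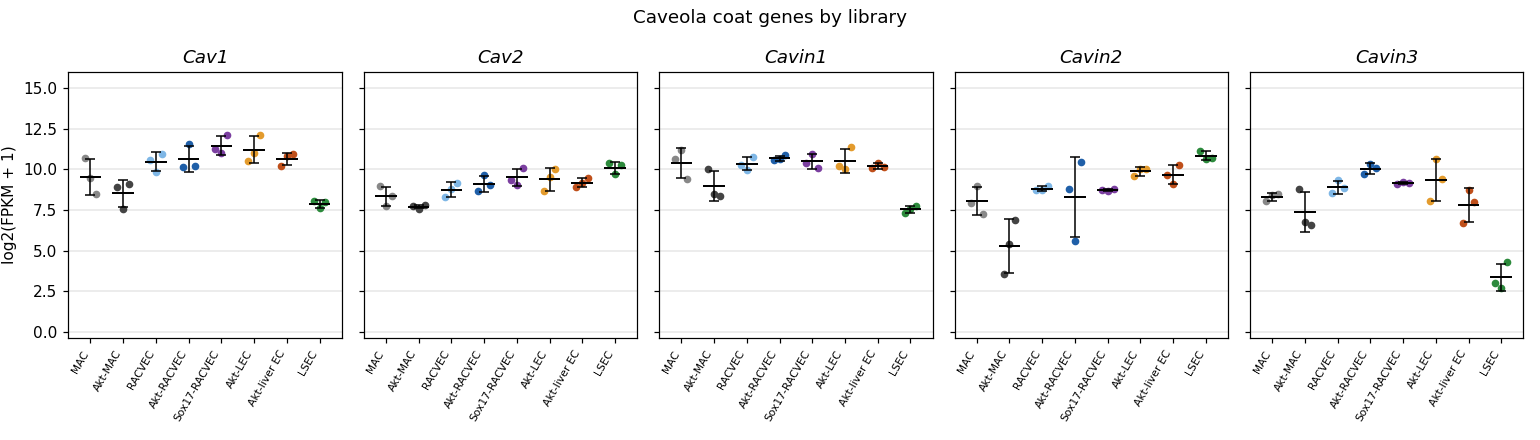
log2(FPKM + 1) of the 5 caveola coat genes on the vertical axis in the 8 groups, each point 1 library, with the mean as a line and 1 SD as a bar. Cav1, Cavin1 and Cavin3 sit lowest in LSECs, where the 3 Cavin3 libraries have 7.16, 5.60 and 18.9 FPKM, and Cav2 and Cavin2 sit highest there.

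Plvap, the diaphragm protein, lies on chromosome 8 from 74021653 to 74035668 on the minus strand. Its FPKM was 35.7, 16.3 and 10.1 in MACs, 18.3, 66.8 and 1.44 in Akt-MACs and 121, 86.2 and 25.2 in RACVECs. Akt-RACVECs had 1449, 548 and 1311, and none of their libraries overlapped any of those 3 groups. The difference from Akt-MACs was the largest rise given as a fold for a member in that comparison, at 6.11 ± 1.00 (SE, adjusted p = 0.000563). That from RACVECs missed the threshold at 3.96 ± 1.00 (SE, adjusted p = 0.0717), and passed with a pseudocount of 10 (adjusted p = 0.0440). RACVECs overlapped MACs, at 1.77 ± 1.00 (SE, adjusted p = 0.344).

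Akt-LECs had 1084, 3708 and 429 FPKM of Plvap, Akt-liver ECs 1829, 3842 and 5953 and LSECs 866, 988 and 674. Akt-RACVECs lay within the range of Akt-LECs, with a difference of -0.24 ± 1.00 (SE, adjusted p = 0.992) that turned to 0.57 without Akt-LEC 2 and 0.20 without Akt-RACVEC 2. RACVECs were below every Akt-LEC library, at -4.20 ± 1.00 (SE, adjusted p = 0.1), and this passed without Akt-LEC 3 (adjusted p = 0.0478). Akt-liver ECs were all above LSECs, at 2.06 ± 1.00 (SE, adjusted p = 0.121), which passed only when these 2 groups were fitted alone (adjusted p = 0.0264). The libraries labelled Sox17-RACVEC had 149, 409 and 55.8, the highest of them in Sox17-RACVEC 2. They were below every Akt-RACVEC library, with a difference of -2.74 ± 1.00 (SE, adjusted p = 0.542), which was -3.46 (adjusted p = 0.0987) without Sox17-RACVEC 2.

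Gpihbp1, the lipase anchor of capillaries, lies on chromosome 15 from 75427088 to 75428642. It was listed at 0 in all 3 MAC and all 3 Akt-MAC libraries, so no fold against them is given. RACVECs had 15.8, 3.76 and 2.56 FPKM and Akt-RACVECs 76.6, 248 and 50.2. Both converted groups were above 0 in every library, and the adjusted p was 2.11e-05 in the Akt-RACVEC comparison with Akt-MACs and 0.0631 in that of RACVECs with MACs. Akt-RACVECs were above every RACVEC library, by 3.92 ± 0.76 (SE, adjusted p = 0.0363). That call was lost without RACVEC 1, 2 or 3 (adjusted p = 0.0544, 0.0592 and 0.130) and without Akt-RACVEC 2 (0.111), all with the same direction. Over the same libraries the summed FPKM of the 9 endothelial markers was 1961 to 4294 in RACVECs and 12099 to 20487 in Akt-RACVECs, and that of 5 fibroblast markers was 2041 to 3695 and 0.31 to 102. Their part in the result was not tested.

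Adult cells spanned a wide range of Gpihbp1. Akt-LECs had 85.6, 106 and 118 FPKM and were higher than RACVECs, at -3.97 ± 0.76 (SE, adjusted p = 0.0306) for RACVECs against Akt-LECs. This call was lost without Akt-LEC 1, 2 or 3 (adjusted p = 0.0507, 0.129 and 0.0581) and without RACVEC 2 or 3 (0.0749 and 0.157). Akt-RACVECs bracketed Akt-LECs, with a difference of -0.05 ± 0.76 (SE, adjusted p = 1) that turned to 0.05 without Akt-LEC 3 and to 0.13 and 0.43 without Akt-RACVEC 1 and 3. The libraries labelled Sox17-RACVEC had 3.08, 14.6 and 0, again highest in Sox17-RACVEC 2. Their difference from Akt-RACVECs did not pass the test, at -4.64 ± 0.76 (SE, adjusted p = 0.0643). Without Sox17-RACVEC 2 it was -5.62 (adjusted p = 0.00039), and without Akt-RACVEC 3 it was -5.12 (adjusted p = 0.0222).

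LSECs had 10446, 9619.7 and 12583 FPKM of Gpihbp1, which ranked 12, 12 and 9 among all 14964 genes in those libraries. Akt-liver ECs had 109, 355 and 381, lower in every library, at -5.46 ± 0.76 (SE, adjusted p = 2.61e-05). Of 8 liver sinusoidal markers, 6 were also called lower in Akt-liver ECs. Of 3 lymphatic markers, 2 were called higher there, Pdpn by 8.18 (adjusted p = 0.00454) and Prox1 by 5.82 (adjusted p = 0.00455). The 2 groups differed in culture, in the Akt virus and in how the cells were captured, and these cannot be told apart. The lipase that Gpihbp1 holds, Lpl, is made mainly by fat, muscle and macrophages. Lpl had 44.6, 801 and 2656 FPKM in Akt-MACs, 124, 9.09 and 44.7 in RACVECs, 8.93, 10.5 and 7.52 in Akt-RACVECs and 378, 262 and 135 in LSECs. Akt-MACs, listed at 0 for the anchor, thus held the enzyme, though Akt-MAC 1 lay within the range of RACVECs. With the macrophage-rich Akt-MAC 2 and 3 left out, the log2 fold change of Lpl in Akt-RACVECs against Akt-MACs was -2.20.

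**Figure D4:**
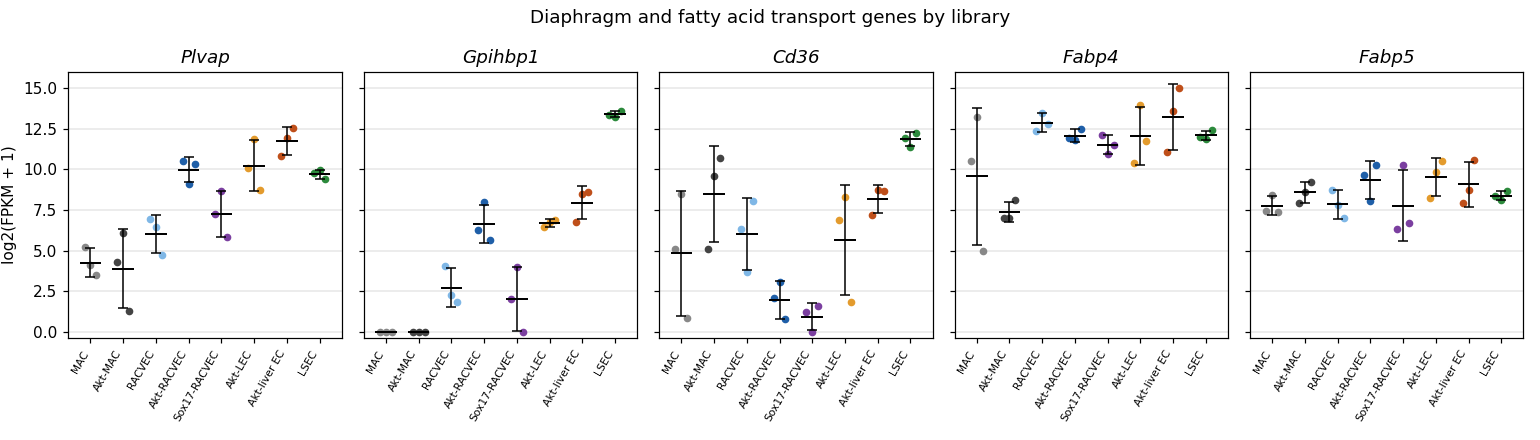
log2(FPKM + 1) of Plvap, Gpihbp1, Cd36, Fabp4 and Fabp5 on the vertical axis in the 8 groups, each point 1 library, with the mean as a line and 1 SD as a bar. Gpihbp1 is at 0 in MACs and Akt-MACs and at least 9619.7 FPKM in LSECs, and Cd36 is at most 7.44 FPKM in the 6 libraries of Akt-RACVECs and Sox17-RACVECs.

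Cd36, the fatty acid receptor, lies on chromosome 5 from 17287508 to 17394777 on the minus strand. It was the only member that was lower in converted cells with Akt. Its FPKM was 33.9, 785 and 1631 in Akt-MACs and 3.23, 7.44 and 0.69 in Akt-RACVECs, without overlap, at -6.50 ± 1.75 (SE, adjusted p = 0.0133). The 3 Akt-MAC libraries stood in the same order by macrophage sum, which was 966, 14775 and 45293, and 7 of 8 macrophage markers were called lower in Akt-RACVECs than in Akt-MACs. Macrophages themselves make Cd36, and their part in the result was not tested. With Akt-MAC 2 and 3 left out the log2 fold change was -3.15 (adjusted p = 0.477), and the call was also lost without Akt-MAC 2 (0.0590) or Akt-MAC 3 (0.0589) alone.

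RACVECs had 79.9, 11.9 and 265 FPKM of Cd36, all above every Akt-RACVEC library and every library labelled Sox17-RACVEC, which had 1.35, 0 and 1.94. Neither difference passed the test, at -4.06 ± 1.75 (SE, adjusted p = 0.263) for Akt-RACVECs and -5.10 ± 1.75 (SE, adjusted p = 0.557) for the libraries labelled Sox17-RACVEC. These 6 libraries were low together, although 1 of them had gone against its label. Without Sox17-RACVEC 2 the second difference was -4.63 (adjusted p = 0.793). MACs had 33.9, 362 and 0.8, a spread wider than most differences between groups, and the highest of them was MAC 2, the library with the adipocyte markers. Fat cells make Cd36 too, and their part was not tested.

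Among adult ECs the Cd36 FPKM was 3888, 2658 and 4909 in LSECs, 146, 421 and 406 in Akt-liver ECs and 117, 307 and 2.58 in Akt-LECs. Every LSEC library was above all 21 others. The difference of Akt-liver ECs from LSECs was -3.66 ± 1.75 (SE, adjusted p = 0.116), which did not pass the test over the spread shared by all groups. It passed with a pseudocount of 10 (adjusted p = 0.0444) and when only these 2 groups were fitted (0.00588). LSECs held a macrophage sum of 14576 to 24078 as well, and the part of macrophages in their Cd36 level was not tested.

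Cd36 was the only member with several RefSeq transcripts, 5 of them, and the groups used them unequally. NM_007643 held 40.3% to 88.7% of the Cd36 FPKM in the 15 libraries with at least 30 FPKM. NM_001159556 and NM_001159557 together held 35.1% to 48.5% in the 3 Akt-MAC libraries and 59.6% in MAC 2. In LSECs they held 0.589% to 1.31%, and NM_001159555 with NM_001159558 held 14.4% to 18.5%. Akt-liver ECs were like LSECs in this, with 1.53% to 2.37% and 11.1% to 33.4%. In Akt-LECs the 2 libraries parted, with 35.5% of the first pair in Akt-LEC 1 and 0.189% in Akt-LEC 2. Akt-LEC 1 had the highest macrophage sum of its group, 1604 against 2.09 and 18.6. MAC 2, with the highest share of that pair, had a macrophage sum of 0.79, the lowest of MACs. The split of reads between overlapping transcripts is an estimate, and no test was made.

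Fabp4, the binding protein of fat cells, macrophages and capillary ECs, lies on chromosome 3 from 10204347 to 10208576 on the minus strand. Its FPKM was 127, 129 and 272 in Akt-MACs and 3853, 3542 and 5822 in Akt-RACVECs. No library overlapped, and the difference was 4.70 ± 1.38 (SE, adjusted p = 0.0204). The adjusted p was 0.0541 without Akt-MAC 1, 0.0676 without Akt-MAC 2, 0.0536 without Akt-RACVEC 3 and 0.166 without both Akt-MAC 2 and 3. In the other conversion RACVECs had 5182, 11291 and 7215 and MACs 1437, 9686 and 30.7, where MAC 2 overlapped RACVECs and the difference did not pass the test (3.30 ± 1.38 SE, adjusted p = 0.195). Without MAC 2, the library with an adipocyte marker sum of 4839.6, it was 5.14 (adjusted p = 0.0231). The part of fat cells in MAC 2 was not tested.

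Among ECs Fabp4 was one of the most abundant transcripts. It ranked between 1 and 128 among 14964 genes in every library of the 6 converted and adult groups, and first in Akt-liver EC 2 and 3. Akt-liver ECs had 2151, 12079 and 33549 FPKM, a range that held all 3 LSEC libraries (4090.0, 3672 and 5448). Akt-LECs had 1365, 15788 and 3452 and the libraries labelled Sox17-RACVEC 4514, 1993 and 2835. No comparison among these groups passed the test, with 1.14 ± 1.38 (SE, adjusted p = 0.564) for Akt-liver ECs against LSECs.

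Fabp5, the more widely made relative of Fabp4, lies on the same chromosome 187739 bases away, between 10012548 and 10016607 on the plus strand. Its FPKM ran from 78.9 to 1537 over the 24 libraries, and it was called in none of the 11 comparisons. MACs had 172, 347 and 166, RACVECs 429, 223 and 125 and Akt-RACVECs 814, 259 and 1247. Akt-RACVECs overlapped RACVECs through their second library, with 1.48 ± 0.89 (SE, adjusted p = 0.429). The libraries labelled Sox17-RACVEC had 78.9, 1221 and 103, the outlying one being Sox17-RACVEC 2. Fabp5 has near-identical processed copies in the mouse genome, between which reads could have been split.

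The balance of the 2 binding proteins turned over in 4 libraries. Akt-MACs held 0.519, 0.335 and 0.46 units of Fabp4 per unit of Fabp5 per kilobase and MAC 3 held 0.184, while every other library held at least 1.63. The 3 LSEC libraries lay close together, at 12.5, 13.4 and 13.6, with more Fabp4 than Fabp5. This ratio too was chosen after its values were seen.

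A list of 15 other caveola genes, 13 of them tested, is given beside the share of all genes called. In Akt-RACVECs against Akt-MACs 3 were called higher and 1 lower, against 19.5% of all genes, and the median of the 13 was -0.62, against -0.09 over all genes. Nos3, the endothelial nitric oxide synthase held by caveolin, was higher by 7.14 (adjusted p = 0.00695) and Ehd2, an ATPase of the caveolar neck, by 2.11 (adjusted p = 0.0071). Ehd4, its relative, was higher by 1.78 (adjusted p = 0.0143), and the receptor kinase Ror1, listed at 0 in every Akt-RACVEC library, was lower (adjusted p = 0.0320). Akt-LECs against Akt-MACs, where 16.3% of all genes were called, had 2 higher and 1 lower, Nos3 (6.81, adjusted p = 0.0113), Ehd2 (2.50, adjusted p = 0.00367) and the kinase Src (-1.89, adjusted p = 0.018).

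In Akt-liver ECs against LSECs 6 of the 13 were called higher and 2 lower, against 27% of all genes. Ehd2 was 7.07, 9.88 and 17.8 FPKM in LSECs and 461, 775 and 518 in Akt-liver ECs, higher by 5.59 (adjusted p = 9.96e-08), in the same direction as Cav1, Cavin1 and Cavin3. Src was higher by 4.22 (adjusted p = 5.87e-06) and Pacsin3, which bends caveolar membrane, by 3.51 (adjusted p = 5.74e-05). Nostrin, which traffics the nitric oxide synthase, fell by 6.68 (adjusted p = 0.00187) and Ehd3, a relative of Ehd2 found in endosomes, fell by 5.71 (adjusted p = 0.000578). The median of the 13 was 1.72, against 0.08 over all genes.

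Of 34 other genes of lipid uptake and transport, 32 were tested. In Akt-RACVECs against Akt-MACs 1 was called higher and 5 lower, a share near the 19.5% of all genes. Fabp7, the brain form of the binding proteins, fell by 7.47 (adjusted p = 0.00141), Lpl fell by 5.54 (adjusted p = 0.016) and the acyl-CoA synthetase Acsl1 fell by 2.76 (adjusted p = 0.00871). Fabp3, the heart form, was lower and listed at 0 in Akt-RACVECs (adjusted p = 0.00112), and the transporter Slc27a1 fell by 2.06 (adjusted p = 0.0151). Lpl had 44.6, 801 and 2656 FPKM in Akt-MACs, in the order of the macrophage sum in those libraries. Akt-LECs against Akt-MACs called 1 higher and 4 lower, against 16.3% of all genes, and Akt-MACs against MACs 1 lower, the transporter Slc27a3 (-3.60, adjusted p = 0.0133). In Akt-LECs Fabp7 fell by 7.43 (adjusted p = 0.00215), Fabp3 by 2.76 (adjusted p = 0.0224) and Slc27a1 by 2.56 (adjusted p = 0.0058). The lipid droplet coat Plin2 fell by 1.36 (adjusted p = 0.0388) and the acyl-CoA synthetase Acsl5 rose by 1.07 (adjusted p = 0.0207).

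Against LSECs, Akt-liver ECs had 4 of the 32 higher and 7 lower, where 27% of all genes were called. The lipase inhibitor Angptl4 was higher by 7.14 (adjusted p = 6.06e-06) and the lipoprotein receptor Vldlr by 6.15 (adjusted p = 1.21e-05). Fabp7 fell by 7.64 (adjusted p = 0.000375). The liver form Fabp1 was listed at 0 in all 3 Akt-liver EC libraries and had a mean of 2177 FPKM in LSECs (adjusted p = 3.82e-14), beside the hepatocyte sum of 2516 to 14489, whose part was not tested.

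Of 17 regulators, 15 were tested, and in Akt-RACVECs against Akt-MACs 3 were called higher and 1 lower (19.5% of all genes). Pparg, a nuclear receptor that acts on Fabp4 and Cd36 in fat cells and macrophages, was higher in Akt-RACVECs than in Akt-MACs by 3.42 (adjusted p = 0.0291), with 262, 138 and 198 against 9.88, 24.4 and 20.4 FPKM. Over these libraries Fabp4 was higher and Cd36 lower. The VEGF receptor Flt1 was higher by 4.48 (adjusted p = 0.00553) and Notch1 by 1.75 (adjusted p = 0.016), while Cebpa, a factor of fat and myeloid cells, fell by 5.66 (adjusted p = 0.00144). Akt-LECs against Akt-MACs called 1 higher, Notch1 (1.55, adjusted p = 0.0327), and 1 lower, Cebpa (-3.73, adjusted p = 0.0197). Against LSECs, Akt-liver ECs had 5 higher and 2 lower (27% of all genes), among them Pparg (3.56, adjusted p = 0.0161), Gata6 (4.20, adjusted p = 0.0195), Vegfa (1.76, adjusted p = 0.0196), Flt1 (-5.58, adjusted p = 0.000453) and the VEGF coreceptor Nrp1 (-6.12, adjusted p = 0.000104). None of the 3 lists had a called gene in RACVECs against MACs or in any comparison that left out MACs, Akt-MACs and LSECs.

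Many of these list calls rested on single libraries. Of the 38 differences named from the 3 lists, 18 lost their call when 1 library was left out. In Akt-RACVECs against Akt-MACs they were Ehd2, Ehd4, Ror1, Lpl, Slc27a1, Notch1 and Pparg, the last without any 1 of the 6 libraries (adjusted p = 0.0537 to 0.0887). In Akt-LECs against Akt-MACs they were Nos3, Src, Fabp3, Plin2, Acsl5, Notch1 and Cebpa, in Akt-MACs against MACs Slc27a3, and in Akt-liver ECs against LSECs Gata6, Pparg and Vegfa. Of the 24 differences that involve Akt-MACs, 20 were lost with Akt-MAC 2 and 3 left out.

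The genes whose log2(FPKM + 1) ran most like each member over the 24 libraries, among genes with a mean of at least 10 FPKM, are given by Pearson's r as a description, since the libraries share groups. Cavin1 and Cavin3 both had Ehd2 among their 3 nearest (r = 0.93 and 0.92) together with Gramd4 (0.88 and 0.92). Plvap was nearest to Klhl4 (0.93), Adgrg3 (0.92) and the hyaluronan receptor Lyve1 (0.92), and Gpihbp1 to the sinusoidal scavenger receptor Stab2 (0.93), Gimap4 (0.93) and Hdc (0.92). Cd36 was nearest to Rab3il1 (0.93), Otulinl (0.91) and Acp5 (0.88), the last an enzyme of macrophages and osteoclasts. Cav1 was nearest to Loxl4 (0.92), Cav2 to Tnfaip1 (0.84), Cavin2 to Mrrf (0.86), Fabp4 to Pear1 (0.85) and Fabp5 to Ddx41 (0.79). Among the members themselves r passed 0.75 for Cavin1 with Cavin3 (0.86), Cav1 with Cavin1 (0.80) and Plvap with Gpihbp1 (0.78).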

How the data were processed

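The deposited values are FPKM per RefSeq transcript. Per the study's methods and the submitters' processing notes, the authors aligned paired reads to mm9 with TopHat and made FPKM with Cufflinks, with upper-quartile scaling and bias correction. Versions and the annotation release are not given in the sources used here, depth is unknown, and a listed 0 can be a failed estimate. Transcript rows were summed per current mouse symbol, and mm9 positions come from GENCODE M1. log2(FPKM + 1) of the 14964 genes with a mean of at least 1 FPKM was fitted over the 8 groups with limma 3.58.1 (trend, R 4.3.3) and adjusted by Benjamini-Hochberg, in 11 comparisons and 1 interaction. The script was tested on simulated data. The members and gene lists were chosen with earlier results of these data known. Named beyond the members were at most 5 called genes per list and comparison, those of largest change without overlap between groups. Libraries with the same number were not paired by their profiles (all pair correlations above 0.1 in 0 of 11 comparisons, range -0.49 to 0.57). Other pseudocounts, filters, scalings, transcript choices, subsets of groups and the study's own criterion were tried. Chosen after seeing the data were a block by file header and the removal of 2 Akt-MAC libraries.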

Additional observations from a re-analysis of the deposited data

How the results depend on the processing

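Of the 91 gene differences recomputed, 3 that were not called changed sign. With 1 library left out, Cavin1 in RACVECs against MACs ran from -0.58 to 0.32, and in Akt-RACVECs against Akt-LECs Plvap ran from -0.98 to 0.57 and Gpihbp1 from -0.71 to 0.43, with 0.27 for Gpihbp1 by the study's criterion. With other filters, scaling by the median shift or the main transcript of each gene alone, each that could be computed kept its side of the threshold, except Vegfa in Akt-liver ECs against LSECs, which was 1.17 (adjusted p = 0.356) by its main transcript. Calls were lost for 29 differences with only the groups compared, 45 with the replicate block and 36 by the study's criterion, and 2, 1 and 3 were gained. Those lost by the study's criterion included Nos3, Flt1, Fabp3, Fabp7 and Cebpa in Akt-RACVECs against Akt-MACs. The 91 include differences that were not called. The counts of called members were unstable too. For Akt-RACVECs against Akt-MACs the 9 became 3 when only these groups were fitted, 0 with the replicate block, 3 by the study's criterion, 3 without Akt-MAC 2 and 3, and 4 to 9 with 1 library left out. For Akt-LECs against Akt-MACs the 8 became 1, 0, 2 and 3 in the same order, and 5 to 8 with 1 library left out. For Akt-RACVECs against RACVECs the 1 became 0 with a pseudocount of 0.1, 2 with 10, 0 with only these groups, 0 with the replicate block and 0 to 1 with 1 library left out. For RACVECs against Akt-LECs it became 0, 2, 0, 0 and 0 to 1, and 2 by the study's criterion. RACVECs against MACs gave 1 with a pseudocount of 0.1 and 0 to 1 with 1 library left out, Sox17-RACVECs against Akt-RACVECs 1 with a pseudocount of 10 and 0 to 1, Akt-MACs against MACs 0 to 2 and the interaction 0 to 2. A fit of 6 libraries, or 3 pairs, has few degrees of freedom, and the part of this in the changed counts was not tested. Akt-liver ECs against LSECs gave 4 to 6 members under every alternative, although Cavin3 missed the study's criterion. A count test could not be run on FPKM, and the depth behind low values is unknown.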

Other observations

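Ranked among the 14964 genes of each library, Cavin3 stood at percentiles 24.9 to 36.8 in LSECs and 97.8 to 98.8 in Akt-RACVECs, and Cd36 stood at 99.5 to 99.8 in LSECs and 20.5 to 28.2 in Akt-RACVECs. In MACs 1, 2 and 3 Fabp4 ranked 136, 4 and 8401, and Cd36 ranked 7734, 875 and 13510.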
